A study of Mus musculus with 3 samples.

Results

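Collagen and extracellular matrix genes of mouse liver were followed through 8 genes of 18194 named on the array: Col1a1, Col1a2, Col3a1, Col4a1, Sparc, Timp1, Dcn and Lum. They were read by 13 probe sets (groups of short oligonucleotides against 1 transcript), chosen by ID from the 45037 of the array without the manufacturer's controls, and the array's gene table gave all 13 the same symbols as that choice. The deposited table of log2 ratios listed 8 of the 13, each with a value on all 3 arrays. The 5 others (both for Col1a1, 1 each for Col1a2 and Col4a1, and that for Timp1) had a signal only in the fuller value table and are described apart. Female BALB/c mice, an inbred strain, gave 3 groups: old Chlorella, 50 weeks of age with 2.0% Chlorella powder (a green alga) in the food, old control, 50 weeks of age on normal food, and young control, 10 weeks of age on normal food. Liver RNA of 6 mice was pooled per group and read on 1 array, so no difference here has a replicate check, no p-value exists, and pooling hides the spread between mice. Sensitization to ovalbumin stands in the series title but in no label of these groups.

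The extracellular matrix is the protein mesh around cells. In liver it is sparse, lies mainly in portal tracts, around central veins and in the space between sinusoidal endothelium and hepatocytes, and is made largely by stellate cells and portal fibroblasts. Col1a1 and Col1a2 encode the chains of type I collagen and Col3a1 that of type III collagen, which form the fibrils that build up in fibrosis. Col4a1 encodes a chain of the network collagen of basement membranes. Sparc binds collagen and guides its deposition, Dcn and Lum are small leucine-rich proteoglycans that coat collagen fibrils and regulate their assembly, and Timp1 inhibits the metalloproteinases that degrade matrix.

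The tissue label was borne out by hepatocyte markers: all 12 probe sets found for Alb, Ttr, Apoa1, Tat, Cps1 and Cyp2e1 were listed, with log2 signals from 12.37 to 16.20. Array medians of the log2 signal were 6.46 in old Chlorella, 6.33 in old control and 6.07 in young control. Signals beside a deposited ratio were far brighter, with medians of 8.97, 8.95 and 9.10 in the same order of arrays, than those of probe sets outside the ratio table, with medians of 5.02, 4.81 and 4.50. Probe sets in that table whose cell was empty on an array lay between, with medians of 6.71, 6.45 and 5.63. Ratios and signals gave the same differences between arrays wherever both existed (tolerance 0.001 on the log2 scale), so the log2 signals below show the level on each array and the log2 differences come from the ratios.

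The old control array had lower values than the young control array for the listed collagens and higher values for Dcn and Lum. Col1a2, Col3a1 and Col4a1 were lower in old control by up to 1.81-fold, and Dcn and Lum were higher by 1.86-fold and 1.57-fold. As deposited, on every listed probe set of Col1a2, Col3a1 and Col4a1 old Chlorella lay below old control, which lay below young control. The order depended on scaling for Col3a1 1427884_at (0.238 by age after quantile normalization of the ratios). It did so too for Col4a1 (0.0265 by diet when scaled to the poly-A controls). The share of all probe sets in this order was not counted. On the members of Col1a2 and Col4a1 without ratios, old Chlorella lay above old control. In whole liver, fewer cells that make a transcript and less of it per cell cannot be told apart.

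**Figure D1:**
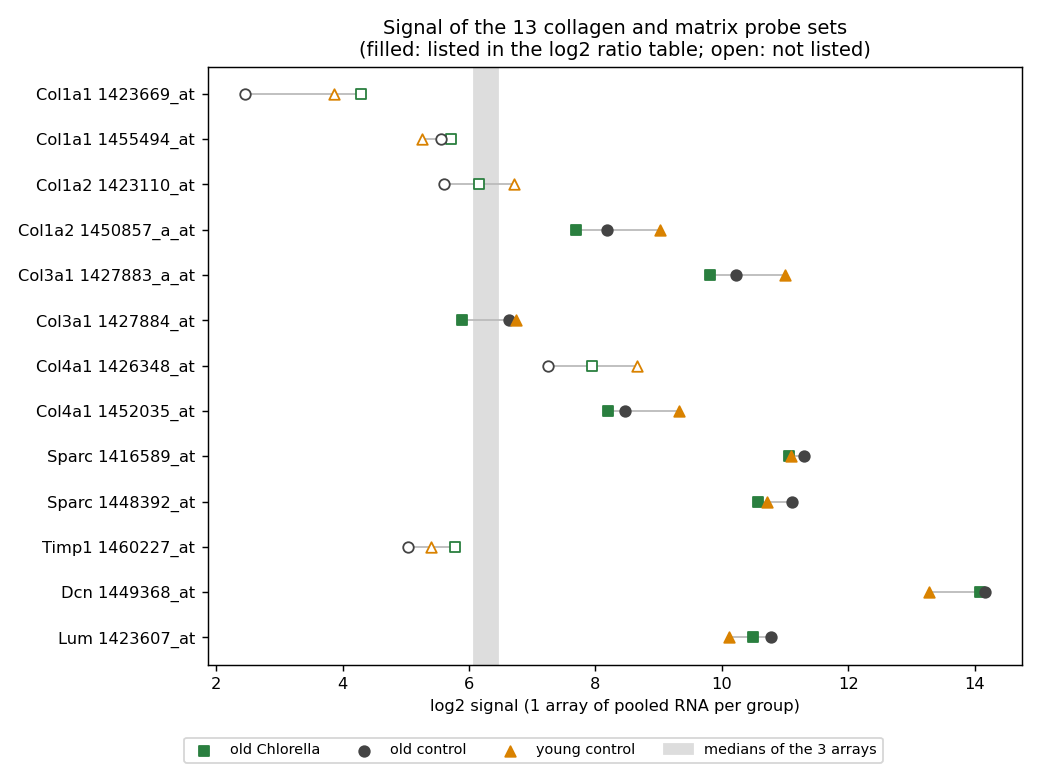
Log2 signal (x axis) of the 13 probe sets (rows) on the arrays of old Chlorella (squares), old control (circles) and young control (triangles), 1 array per group. Filled symbols mark the 8 probe sets with deposited ratios and open symbols the 5 without, and the grey band spans the medians of the arrays, 6.07 to 6.46. The filled collagen rows run from old Chlorella on the left to young control on the right, whereas for Dcn and Lum young control is on the left.

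Col1a2 was read best by 1450857_a_at, whose log2 signal was 7.70 in old Chlorella, 8.18 in old control and 9.02 in young control. The log2 difference was -0.841 (1.79-fold) between old control and young control, lower than in all but 13.5% of the 16667 probe sets compared. Old Chlorella differed from old control by -0.48 (1.39-fold) and from young control by -1.32 (2.50-fold). The 3 arrays are thus spaced in 1 direction, with the larger step between young and old.

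Col3a1 had a pair of listed probe sets. On 1427883_a_at the log2 signal was 9.81 in old Chlorella, 10.22 in old control and 10.99 in young control, and on 1427884_at it was 5.89, 6.63 and 6.74 in the same order of groups. Both probe sets thus rank the arrays alike but place the larger step differently. For 1427883_a_at the age difference, old control minus young control, was -0.77 (1.71-fold) and the diet difference, old Chlorella minus old control, was -0.416 (1.33-fold). The dimmer 1427884_at, near the array median, gave an age difference of -0.115 (1.08-fold) and a diet difference of -0.734 (1.66-fold). Against young control, old Chlorella was lower by 2.28-fold on the first and 1.80-fold on the second.

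Col4a1 was listed through 1452035_at, with log2 signals of 8.20 in old Chlorella, 8.46 in old control and 9.32 in young control. Its age difference of -0.854 (1.81-fold) was the lowest of the 8 listed probe sets, and its diet difference was -0.263 (1.20-fold). In the mouse genome Col4a1 and Col4a2, which encode the chains of the most common type IV collagen, are neighbours and are known to be transcribed away from each other from a shared region. The listed Col4a2 probe set, 1424051_at, had log2 signals of 7.01, 7.37 and 8.22 in old Chlorella, old control and young control, the same order, but a pair of ratios was deposited for none of the comparisons.

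Start regions of the listed genes, taken from RefSeq on GRCm38.p6 as 300 bases (250 before and 50 after the start), were searched for CCAAT on either strand, the letters that the factor NF-Y recognises. They were available for Col1a2, Col3a1, Col4a1 and Sparc. Each match is shown as 30 bases read 5′ to 3′ on the strand of the gene, with the match in capitals (ATTGG is CCAAT on the other strand). The first Col1a2 window lies at chr6:4505496-4505525 (plus strand), the second at chr6:4505605-4505634 (plus strand), and that of Col4a1 at chr8:11312955-11312984 (minus strand).
Col1a2, first: aaaaagaatggaaCCAATttaagaagcccc
Col1a2, second: ccctagccctcccATTGGtggagacgtttt
Col4a1: gtgcttgcccgggATTGGcgagccaagggg
The Col3a1 and Sparc windows held no CCAAT. Of 32851 RefSeq start regions of this length, 37.4% held at least 1 match, beside 2 of these 4, and a match is a description of the letters only. The start region of Timp1, a member without ratios that did not follow the order of the listed collagens, held 1 match as well.

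Sparc was highest in old control. On 1416589_at the log2 signal was 11.07 in old Chlorella, 11.30 in old control and 11.09 in young control, and on 1448392_at it was 10.57, 11.11 and 10.72. The age differences were 0.208 and 0.388 (1.16-fold and 1.31-fold), and the diet differences were -0.234 and -0.538 (1.18-fold and 1.45-fold). By diet 1448392_at was the second lowest of the 8 listed probe sets, below Col1a2. Old Chlorella minus young control was -0.026 and -0.15.

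Dcn, on 1449368_at, was among the brightest probe sets of each array, with log2 signals of 14.09 in old Chlorella, 14.17 in old control and 13.28 in young control. Old control was above young control by 0.894 (1.86-fold), higher than 88.5% of all probe sets compared. The diet difference was -0.078 (1.06-fold), so nearly all of the step lay between young and old. Old Chlorella remained 0.816 (1.76-fold) above young control.

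Lum, on 1423607_at, had log2 signals of 10.49 in old Chlorella, 10.77 in old control and 10.12 in young control. The age difference was 0.652 (1.57-fold) and the diet difference -0.285 (1.22-fold). Lum and Dcn lie next to each other in the mouse genome, with 0 protein-coding genes between them in RefSeq, and were the listed members with the highest age differences.

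**Figure D2:**
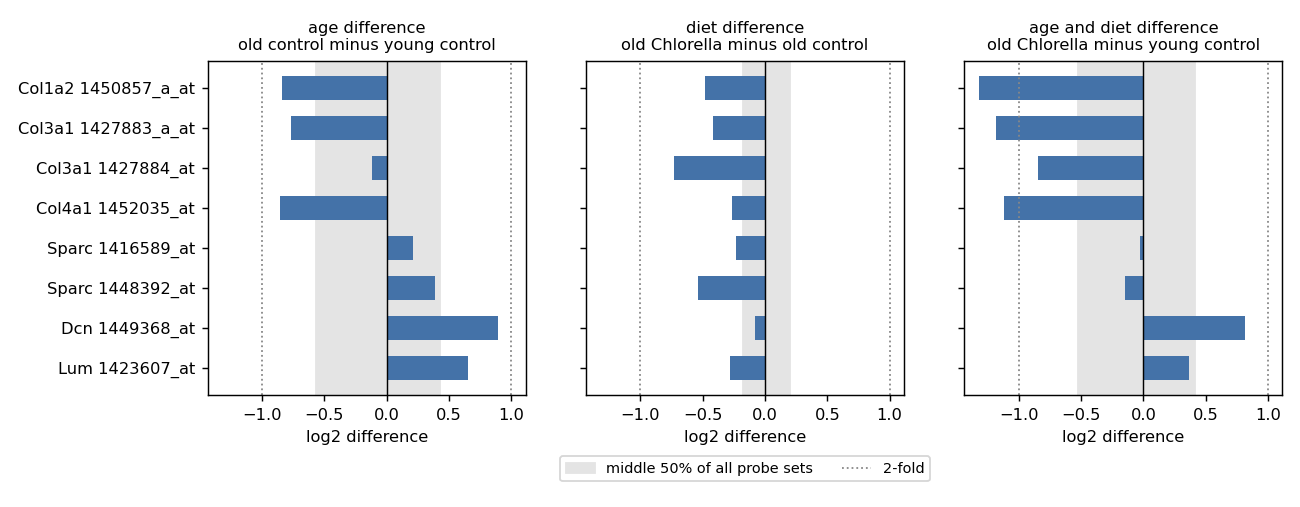
Log2 differences (x axis) of the 8 listed probe sets (rows) for age (left), diet (middle) and both together (right), each between 2 arrays. The grey band is the middle 50% of all probe sets and dotted lines mark 2-fold. Collagen bars point left in all panels and pass 2-fold for 3 probe sets on the right only, whereas Dcn and Lum point right on age and left on diet.

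The threshold throughout was 2-fold, a log2 difference of 1 in either direction. Between old control and young control none of the 8 listed probe sets passed it, where 18.3% of the 16667 probe sets with ratios on both arrays did. Of the 8, 4 were below 0 and 4 above, with a median of 0.0465 and a range from -0.854 to 0.894. The 16667 probe sets together had a median of -0.114, and their middle 50% lay between -0.567 and 0.428. The median near 0 therefore joins collagens below 0 with Sparc, Dcn and Lum above 0, each at a size that many other probe sets also reached.

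Between old Chlorella and old control, none of the 8 passed 2-fold either, where 1.52% of 16524 probe sets did. All 8 were below 0, against 49.4% of all probe sets, and their median was -0.351 where that of all probe sets was 0.003. The middle 50% of all probe sets lay between -0.177 and 0.199, so 7 of the 8, Dcn being the exception, were lower than that range. The 5 probe sets without ratios, described below, were above 0. Scaled to the poly-A controls, 4 of the 8 (Col4a1, Sparc 1416589_at, Lum and Dcn) were above 0 too and the median over the 8 was -0.061, and scaled to the hybridization controls Dcn was above 0. Since old control enters the age as well as the diet comparison, the values are given side by side and not correlated.

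Between old Chlorella and young control, where age and diet change together, 3 of the 8 were lower by 2-fold or more (Col1a2 1450857_a_at, Col3a1 1427883_a_at and Col4a1 1452035_at) and 0 higher by as much. Of all 16572 probe sets, 6.87% were lower and 8.32% higher by that size. The differences of these 3 were -1.32, -1.19 and -1.12. After quantile normalization of the ratios only Col1a2 passed (-1.10), with Col3a1 1427883_a_at at -0.959 and Col4a1 at -0.963. After quantile normalization of the signals Col4a1 did not pass (-0.931), whereas Col3a1 1427884_at did (-1.16). Only 2.35% of all probe sets lay below the first and 4.82% below the last. The median over the 8 was -0.50 and that over all probe sets -0.085.

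Col1a1, the main chain of type I collagen, had dim and discordant probe sets without ratios. Its probe set 1423669_at had log2 signals of 4.29 in old Chlorella, 2.45 in old control and 3.87 in young control. The other, 1455494_at, had 5.71, 5.56 and 5.25. All 6 values were below the median of their array. The age difference of the signals was -1.41 on the first probe set and 0.308 on the second, so the pair disagreed in sign.

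Timp1, on 1460227_at, was also dim, with 5.78 in old Chlorella, 5.03 in old control and 5.39 in young control. Old control was lower than young control by 1.28-fold and old Chlorella higher than old control by 1.68-fold in signal. The second Col1a2 probe set, 1423110_at, had 6.15, 5.60 and 6.71, near the array medians, and the second Col4a1 probe set, 1426348_at, had 7.94, 7.26 and 8.66, above them. Both were lower by age, with -1.10 and -1.41, the direction of the listed probe sets of these genes. Between old Chlorella and old control they were higher, by 0.551 and 0.684, where the listed probe sets were lower, by -0.48 and -0.263.

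For all 5 probe sets without ratios old Chlorella had the higher signal of the old arrays. Probe sets of this kind varied widely: among the 25213 without ratios, 45.5% differed at least 2-fold between the old arrays and 55.6% were above 0, where 1.52% of those with ratios passed 2-fold. Col4a1 1426348_at, at 7.94, 7.26 and 8.66 in old Chlorella, old control and young control, was far brighter than their medians of 5.02, 4.81 and 4.50. Among the 5, 1 (Col1a1 1423669_at, 1.84) passed 2-fold by diet. By age 3 of them were at least 2-fold lower, where 20.9% of the 25213 were. Over all 13 members in the value table, the diet difference was below 0 for 8 and above 0 for 5, with a median of -0.234.

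Other matrix genes were taken from 7 lists: other interstitial collagens, basement membrane, collagen maturation, matrix proteases and their inhibitors, proteoglycans and matricellular proteins, elastic fibre, and the TGF-beta pathway, the main signal that raises collagen synthesis. Of 126 genes, 73 had at least 1 probe set with ratios, 112 probe sets in all. Between old control and young control, 11 of 93 probe sets were past 2-fold on the lower side and 4 on the higher side, and 67 were below and 26 above 0. Over all probe sets, 8.8% were past 2-fold lower and 9.55% past 2-fold higher. The median was -0.392, against -0.114 over all probe sets with both ratios, so most of those were below 0 by age as well. Over all 45037 probe sets of the value table the age median was 0.0592.

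Among the other collagens, Col5a2, which joins type I fibrils, was lower on 1422437_at, with log2 signals of 6.19 in old control and 7.62 in young control (log2 difference -1.44). Col18a1, the basement membrane collagen that carries endostatin and is made by hepatocytes too, was lower on both listed probe sets, by -1.64 and -1.18. Col4a5 differed between its probe sets, with 1.06 on 1425475_at and -0.632 on 1425476_at. For Col6a1, a microfibrillar collagen, ratios allowed only old Chlorella against young control (-1.06). By age 3 of 4 probe sets of the other interstitial collagens and 5 of 7 of the basement membrane list were below 0. The median of all probe sets with both ratios was below 0 as well (-0.114).

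Mmp14, a membrane-bound collagenase that activates Mmp2, was lower by age on all 3 listed probe sets (-1.49, -1.26 and -0.903), and so was Mmp19 on both of its own (-1.40 and -1.63). In this list of proteases and inhibitors 4 of 14 probe sets were past 2-fold, all of them lower, where 8.8% of all probe sets were that much lower. All were probe sets of Mmp14 and Mmp19, so the count rests on repeated probe sets of the same genes. The median over the probe sets was -0.781. Timp2, an inhibitor of these enzymes, gave -0.821 on 1433662_s_at and 0.62 on 1460287_at. Timp3 gave -0.376 on 1419088_at, and its other listed probe sets had no pair of ratios by age. Their log2 signals in old control and young control were 8.34 and 7.71 on the brighter 1449335_at, and 6.83 and 7.31 on 1419089_at. Mmp2 and Mmp13, a gelatinase and a collagenase, had no ratios.

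Enzymes and chaperones of collagen maturation had a median age difference of -0.549. Past 2-fold were 2 of 23 probe sets, both lower, a share near the 8.8% of all probe sets (Plod3, a lysyl hydroxylase, at -1.22, and Tgm2, a transglutaminase that crosslinks matrix proteins, at -1.12). Serpinh1, the collagen chaperone HSP47, had log2 signals of 7.72 in old Chlorella, 8.34 in old control and 8.91 in young control on 1450843_a_at, and 8.42, 8.45 and 8.37 on 1456733_x_at. Only the first of this pair ran in the order of the listed collagens. Lox, the enzyme that crosslinks collagen, had no ratios on any of its probe sets.

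Proteoglycans and matricellular proteins were mixed, with 3 of 16 probe sets past 2-fold higher and 1 past 2-fold lower by age. Over all probe sets, 9.55% were that much higher and 8.8% that much lower. Biglycan (Bgn), the closest relative of decorin here, was lower on its 3 probe sets (-0.382, -0.179 and -0.444), where Dcn and Lum were higher. Lgals3 and Lgals1, galectins abundant in macrophages and mesenchymal cells, were higher, by 1.08 on the Lgals3 probe set and 1.07 and 0.983 on those of Lgals1. Fibronectin, a plasma and matrix glycoprotein made by hepatocytes, differed in sign between probe sets, with 1.40 on 1437218_at and -0.733 on 1426642_at, and vitronectin (Vtn) was lower by -1.23 on 1455098_a_at.

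In the TGF-beta list 1 of 27 probe sets, that of Pdgfrb, was past 2-fold (lower) by age, where 8.8% of all probe sets were. The list median was -0.186, near the -0.114 of all probe sets. The ligand Tgfb1 had log2 signals of 8.40 in old Chlorella, 8.42 in old control and 9.22 in young control, an age difference of -0.803. The target Ctgf (Ccn2) differed by 0.259 and the receptor Pdgfrb, found on stellate cells and other mesenchymal cells, by -1.05. The lists for basement membrane and elastic fibre had 7 and 2 probe sets with both ratios and medians of -0.632 and -0.781.

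By diet the lists differed far less. Of 87 probe sets, 1 passed 2-fold (Adamts5 1456404_at, an aggrecan-cleaving protease, lower at -1.06), where 0.678% of all probe sets were that much lower and 0.841% that much higher. The median was -0.044, where that of all probe sets was 0.003. The other interstitial collagens were above 0 on all 4 probe sets (median 0.18), the opposite sign to the listed members. Collagen maturation had a median of -0.162 and 15 of 21 probe sets below 0.

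**Figure D3:**
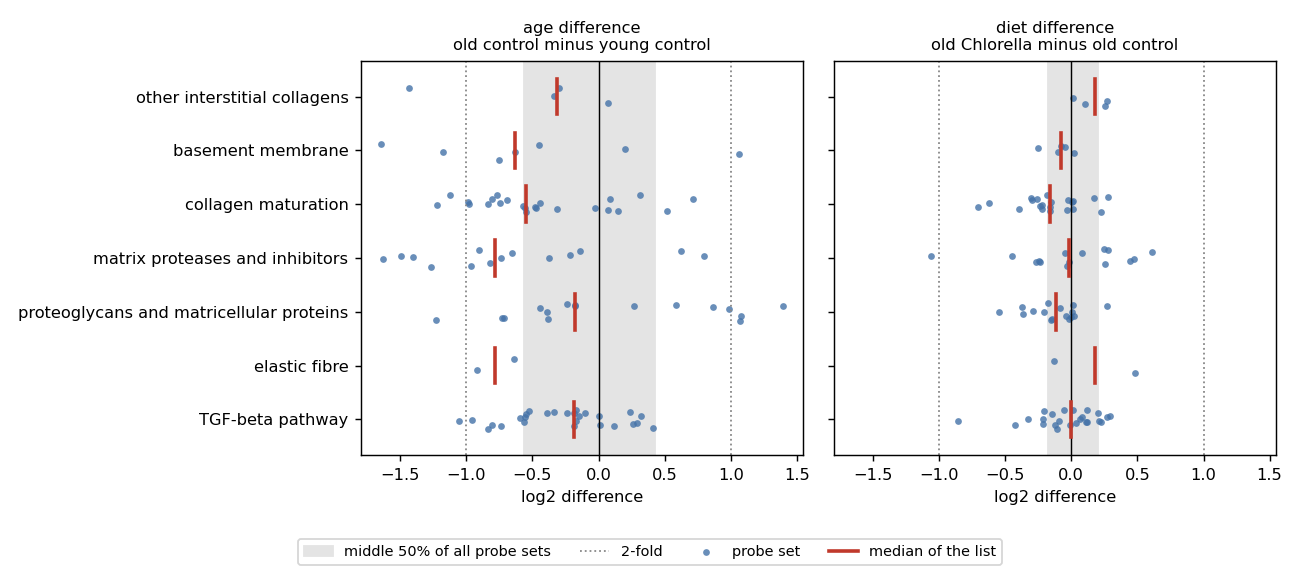
Log2 differences (x axis) of every probe set with both ratios in 7 matrix gene lists (rows), by age (left) and by diet (right), with the median of each list as a red bar. The grey band is the middle 50% of all probe sets and dotted lines mark 2-fold. All 7 age medians are below 0, as is that of all probe sets with both ratios (-0.114), whereas the diet medians lie between -0.162 and 0.18.

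Stellate cell markers were split by age, with 6 probe sets above and 5 below 0 and a median of 0.609. The 6 were 4 probe sets of Rgs5 and 2 of Lrat. Counted by gene, 2 of 7 were above and 5 below 0 (Pdgfrb, Reln, Hand2, Cygb and Pdgfra), with a median over genes of -0.246. Of 11 stellate cell genes 9 had ratios, and of 11 probe sets with both ratios 1 passed 2-fold upwards (Rgs5 1417466_at, 1.10) and 1 downwards (Pdgfrb, -1.05) by age. These counts are near the shares over all probe sets, 9.55% higher and 8.8% lower. The log2 of the summed signal of that list, to which the bright Rgs5 probe sets contribute most, was 14.36 in old Chlorella, 14.43 in old control and 13.85 in young control. Des and Acta2, defining genes of stellate cells and of their activated form, had no ratios. The brightest Acta2 probe set, 1416454_s_at, had log2 signals of 9.002 in old Chlorella, 8.71 in old control and 9.96 in young control. No stellate probe set was at 0 on any array. Portal fibroblast and mesothelial markers (2 of 6 genes with ratios) summed to 9.43, 8.88 and 9.96 in the same order, and none of their probe sets was at 0.

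Markers of other cell types also differed with age. Liver endothelium, a source of type IV collagen, went both ways, with Kdr (-1.18), Stab2 (-0.754) and Oit3 (-0.532) below 0 and Clec4g (1.15) and all 4 listed Fcgr2b probe sets above 0. By gene, 3 of 7 were above and 4 below 0, and the list summed to 14.85 in old Chlorella, 14.95 in old control and 14.41 in young control (log2), with 1 probe set, of Fcgr2b and without ratios, at 0 in young control. Of the hepatocyte probe sets 11 of 12 were above 0 (median 0.431), Tat being the exception (-0.619). All 7 macrophage probe sets with ratios were above 0 by age (7 of 8 genes, median 0.812), the summed signal of the list being 14.99 in old Chlorella, 15.03 in old control and 13.98 in young control (log2). The B-cell gene Ms4a1 was higher by 2.91 and 3.30, the T-cell gene Cd3g differed by -0.017, and the lymphocyte list summed to 10.52, 10.95 and 9.25. No macrophage or lymphocyte probe set was at 0 on any array. The part of these cells in the age differences of Col4a1, Dcn, Lum, Lgals1 and Lgals3 was not tested.

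RNA quality and scaling also moved with age. On the control probe sets for beta-actin, Gapdh and pyruvate carboxylase, the age difference at the 5′ end was below that at the 3′ end, by -0.38, -0.215 and -1.79. By diet the same values were -0.023, 0.046 and -0.082. For scaling to the manufacturer's bacterial controls, the median log2 ratio of the controls was taken on each array. It differed by 0.406 (18 hybridization controls) and 0.751 (24 poly-A controls) by age and by -0.168 and -0.29 by diet. With these subtracted, the median of all probe sets by age would be -0.52 and -0.865 in place of -0.114, and by diet 0.171 and 0.293 in place of 0.003. The share of these factors in the members' values was not tested.

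On these scales the collagens were lower still in old control, by -1.25 and -1.59 for Col1a2, and, the shift being the same for every probe set, the order of the members stayed, whereas the sign of some did not. By age, Sparc became negative with either kind of control and Lum with the poly-A controls (-0.099), while Dcn stayed positive (0.489 and 0.143). By diet, with the poly-A controls Col4a1 (0.0265), Sparc 1416589_at (0.0555), Lum (0.0045) and Dcn (0.212) were above 0, and Dcn was so with the hybridization controls too (0.0895). Col1a2, both Col3a1 probe sets and Sparc 1448392_at were below 0 by diet under all 6 scalings. Col3a1 1427884_at, whose age difference was small, was above 0 by age (0.238) after quantile normalization of the ratios.

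**Figure D4:**
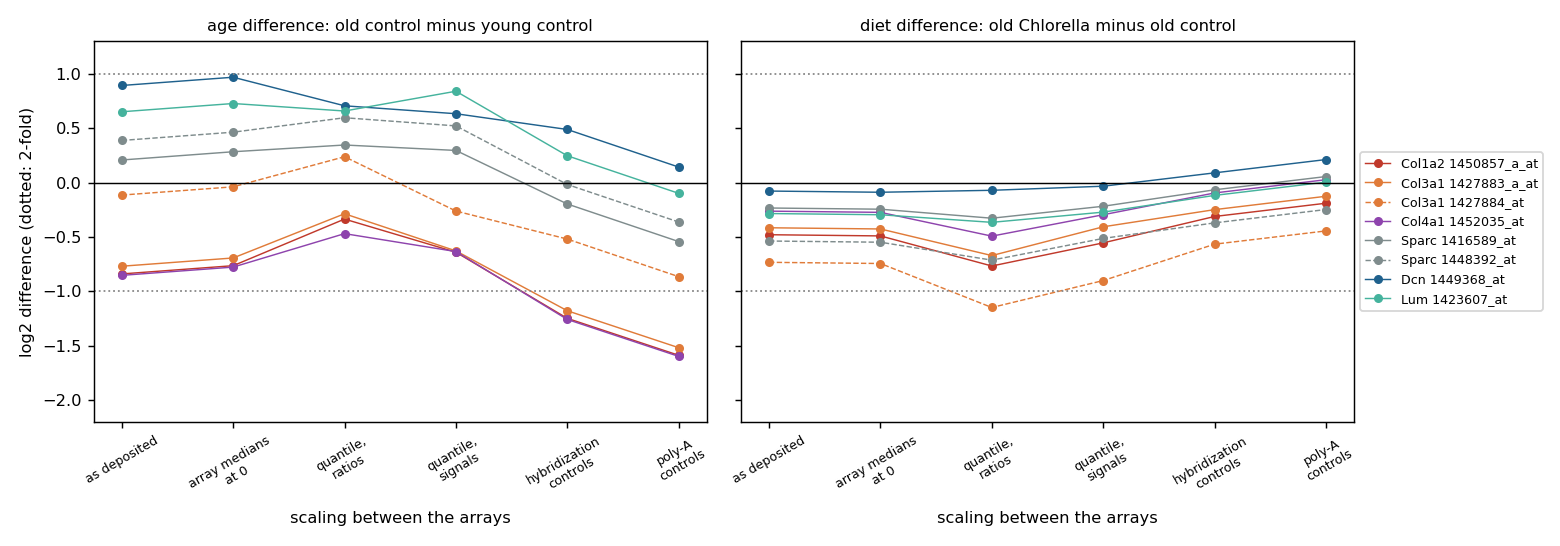
Log2 differences (y axis) of the 8 listed probe sets (lines) by age (left) and by diet (right) under 6 scalings between the arrays (x axis). Dotted lines mark 2-fold. Collagen lines keep below Dcn and Lum by age under all 6 scalings, whereas the diet values of Dcn, Lum, Col4a1 and 1 Sparc probe set cross 0 when scaled to the poly-A controls.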

How the data were processed

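Each array was an Affymetrix one-colour array of biotin-labelled cRNA from pooled liver RNA, per the labels' protocols. The authors deposited log2 ratios of each array to the median of all samples, per the file headers, and a value table that from its values holds log2 signals. The submitters' processing notes name MAS5, the manufacturer's method for summarising probes. The sources used here do not state how arrays were scaled or why ratios exist for 19882 of 45101 probe sets. Old control was matched to the deposited column with the bare heading Old, the Chlorella sample having a column under that name.

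Differences were computed between arrays over probe sets with both values, without the 58 control probe sets, with Python 3.11.15 and pandas 2.3.3. With 1 array per group no test was run, the number of arrays limits the precision, and the calculations were tested on simulated data. Symbols came from the array's gene table (34958 probe sets with 1 symbol, 932 with several, 9211 with none). Members and lists were chosen with earlier results of these data known. From the lists, named genes are key genes fixed by name and up to 4 per list past 2-fold, and some further genes chosen after their values were seen. Alternatives were 5 other scalings, the value table with and without a floor (the 20th percentile), a filter on dim probe sets, 1.5-fold and 3-fold thresholds, and 1 value per gene. The filter, called above the array median, did not require this on every array. It kept all 8 listed members, among them Col3a1 1427884_at at 5.89 in old Chlorella, where the array median was 6.46.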

Additional observations from a re-analysis of the deposited data

How the results depend on the processing

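No paired analysis was possible because each group is 1 array. Quantile normalization of the log2 signals was chosen after seeing the data. The causes of the changes below were not tested.

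By age, the count of members at least 2-fold lower was 0 as deposited, 3 when scaled to the hybridization or the poly-A controls, 3 over all 13 members in the value table, 2 there with a floor, and 3 at 1.5-fold, where 2 were higher. The median over members, 0.0465 as deposited, was 0.122 with array medians at 0, 0.292 and 0.0173 after quantile normalization of ratios and signals, and negative at -0.359 (hybridization controls), -0.705 (poly-A controls), -0.358 (value table), -0.115 (floor) and -0.0723 (1 value per gene). Over the other matrix lists the median, -0.392 as deposited, was -0.316, -0.232, -0.328, -0.797, -1.14, -0.24 and -0.176 under 7 of these settings. The order was medians at 0, quantile ratios, quantile signals, hybridization, poly-A, value table and floor. For probe sets above the array median it was -0.418. The list medians for quantile signals, value table and floor also took in probe sets without ratios, and the others did not. On that larger set the median was -0.24 in the value table and -0.328 after quantile normalization of the signals.

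By diet, 1 member was at least 2-fold lower after quantile normalization of ratios and 1 at 1.5-fold, and 1 higher in the value table. The members' median of -0.35 was, in the same order, -0.361, -0.582, -0.351, -0.183, -0.061, -0.234 and -0.234, and -0.336 with 1 value per gene. That of the lists, -0.044, was -0.055, -0.0848, -0.0166, 0.123, 0.245, 0.00726 and 0, and -0.0415 above the array median. On the larger set with probe sets without ratios, it was 0.00726 in the value table and -0.0166 after quantile normalization of the signals.

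Between old Chlorella and young control, the count at least 2-fold lower was 3 as deposited, 1 after quantile normalization of ratios, 4 under either control scaling, 4 at 1.5-fold (with 1 higher) and 0 at 3-fold. The members' median of -0.50 was -0.434, -0.514, -0.462, -0.738, -0.961, -0.15 and -0.15 in that order, and -0.553 with 1 value per gene. That of the lists, -0.459, was -0.394, -0.355, -0.406, -0.697, -0.921, -0.196 and -0.145, and -0.465 above the array median. On the larger set with probe sets without ratios, it was -0.196 in the value table and -0.406 after quantile normalization of the signals.

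Of 120 values of single members under the 5 other scalings, 16 changed sign. The value table holds the same differences for these members and its floor lies below their signals, so neither could change one. By age these were Col3a1 1427884_at (0.238, quantile ratios), Sparc 1416589_at (-0.197 and -0.543, hybridization and poly-A controls), Sparc 1448392_at (-0.0175 and -0.363, the same) and Lum (-0.099, poly-A). By diet they were Col4a1 (0.0265), Sparc 1416589_at (0.0555) and Lum (0.0045) with the poly-A controls, and Dcn (0.0895 and 0.212) with the hybridization and poly-A controls. Between old Chlorella and young control they were Sparc 1416589_at (0.039, 0.0187 and 0.0787, medians at 0 and quantile ratios and signals), Sparc 1448392_at (0.00817, quantile signals) and Lum (-0.0945, poly-A).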

Other observations

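Further probe sets of the same genes stand outside the 13. Sparc 1458204_at had log2 signals of 7.06 in old Chlorella, 7.77 in old control and 7.05 in young control, and old control was again the highest array, as on both other Sparc probe sets. Dcn 1441506_at, without ratios, had 4.84, 2.83 and 4.38, and Col1a2 1446326_at, also without ratios, 5.01, 3.88 and 0.834. Neither followed the brighter probe set of its gene.

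The patterns most like the median of the Col1a2 and Col3a1 probe sets, by Euclidean distance of centred log2 ratios over the 3 arrays, were those of Myadm 1439389_s_at (distance 0.00779), Etnk1 1430996_at (0.0144), Dnajc16 1436209_at (0.0149), Nars 1428666_at (0.0164) and Reck 1450784_at (0.0245), among 14306 named probe sets. Reck encodes a membrane-anchored inhibitor of metalloproteinases, and its age and diet differences were -0.74 and -0.446. The median used here equals the centred ratios of Col3a1 1427883_a_at, so the likeness is to that probe set and not to the collagens as a group. With 3 arrays 65 probe sets lay within 0.1, so likeness of this kind is common.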
